A study of Caenorhabditis elegans with 91 samples.

Results

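The comparison described here is between gonads of F3 descendants that had lost a neuronal rde-4 transgene and gonads of animals that still carried it, in the nematode Caenorhabditis elegans. It rests on 6 mRNA libraries, 3 of F3 and 3 of carriers, out of 15 gonad mRNA libraries and 91 libraries in the whole series. They were chosen by their labels alone. The F3 animals are labelled rde-4 (-), strain BFF 12, F3 of a heterozygote of strain BFF 16. Carriers are strain BFF 16, rde-4(ne299) with pigSi3, an integrated transgene labelled cb-unc-119(+) and Psng-1::rde-4:SL2:yfp, in which the promoter of sng-1, a synaptogyrin gene of neurons, drives rde-4 together with yfp, with a Caenorhabditis briggsae unc-119 gene as the second component. Strain BFF 12, rde-4(ne299) without pigSi3, gave 3 further libraries and stands last below as the baseline without the transgene. The gonads of sid-1(qt-9);rde-4 animals with and without pigSi3, 3 libraries each, entered the fit to estimate the spread. They also entered the principal components and the counts over all other gonad libraries, and their levels are given for some genes. All came from one-day adults kept at 20 °C, and no gonad group has an intact rde-4 at its own locus. The labels give pigSi3 as 1 insertion, leave unsaid how many F3 lines were kept and whether each replicate was a culture of its own, so p-values reflect only how these libraries vary.

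RDE-4 is a double-stranded RNA binding protein that hands double-stranded RNA to Dicer, which cuts it into small interfering RNAs. RNA-dependent RNA polymerases then copy the targeted transcripts into secondary small RNAs, and Argonaute proteins loaded with these silence matching genes in the cytoplasm or the nucleus. In worms such silencing can pass from neurons to the germline and through it to later generations, with SID-1 as the channel for double-stranded RNA and HRDE-1 as a nuclear Argonaute that maintains inheritance. The comparison therefore asks what gonad mRNA looks like once the neuronal source of RDE-4 has been absent for several generations.

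Libraries of F3 gonads held 4000156 to 5633882 counts in genes and those of carriers 6233925 to 18843242, so that 1 count was worth 0.159 to 0.226 CPM (read counts scaled to a common library total after TMM normalisation) in F3 and 0.0544 to 0.174 CPM in carriers. The share of reads outside genes was 52.5 to 54.2% in F3 and 51.3 to 52.7% in carriers, and TMM factors were 1.07 to 1.15 in F3 and 0.922 to 0.978 in carriers. The F3 libraries stood apart from every other gonad library. On the second principal component they lay between 44.1 and 51.96, while the other 12 libraries, rde-4 and carriers included, lay between -44.8 and 11.06. The median Spearman correlation of log2 CPM was 0.971 among F3 libraries, 0.939 between F3 and carriers, 0.943 between F3 and rde-4 and 0.967 between carriers and rde-4. The lowest value of a single pair was 0.904 between F3 and carriers. It was 0.889 between carriers and sid-1;rde-4 gonads with pigSi3. The labels name no batch, so a batch shared by the F3 libraries and the generation itself cannot be told apart. In bulk gonads, fewer cells of a type and less RNA per cell cannot be told apart either.

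**Figure D1:**
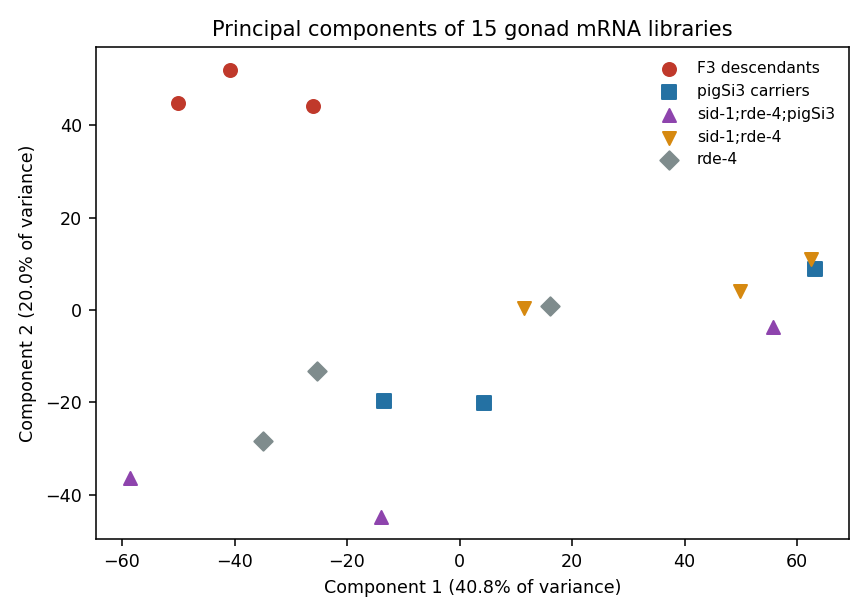
Principal components of log2 CPM over 15 gonad mRNA libraries, with the share of variance on each axis; each point is 1 library and the shape gives its group. The 3 F3 libraries lie between 44.1 and 51.96 on component 2, above the other 12 libraries.

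The gonads of the F3 differed from those of carriers in the mRNA of 3388 of 10569 genes tested (32.1%; edgeR's quasi-likelihood test, Benjamini-Hochberg adjusted p under 0.05), 1633 higher (15.5%) and 1755 lower (16.6%). Most changes were modest: the median log2 fold change was 0.88 among higher and -0.87 among lower genes, with 662 genes at least 2-fold higher, 710 at least 2-fold lower, 93 at least 4-fold higher and 115 at least 4-fold lower. The 3 F3 and 3 carrier values did not overlap in 4763 genes (45.1%), and the median over all genes tested was 0.08. The comparisons with rde-4 share these libraries: F3 against rde-4 called 2961 genes (28%), and carriers against rde-4 called 51 (0.483%). Of the 3388 genes, the range of the rde-4 libraries overlapped that of carriers alone in 2557 (75.5%), that of F3 alone in 193 (5.697%), both in 304 and neither in 334. Over all genes tested the share was 38.1% for carriers alone and 5.88% for F3 alone, the latter near that of the called genes. F3 values lay outside all 12 other gonad libraries in 2344 of the called genes (69.2%) and carrier values in 48 (1.42%), against 24.1% and 0.511% of all genes tested. The called genes were chosen for a difference between F3 and carriers, and in 3277 of them these groups did not overlap. Their shares are in part set by that choice, so the shares of all genes are no neutral background for them. The split by direction depends on scaling: with library totals in place of TMM, 2480 genes were higher and 1155 lower, since the median of all genes then moved to 0.30.

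**Figure D2:**
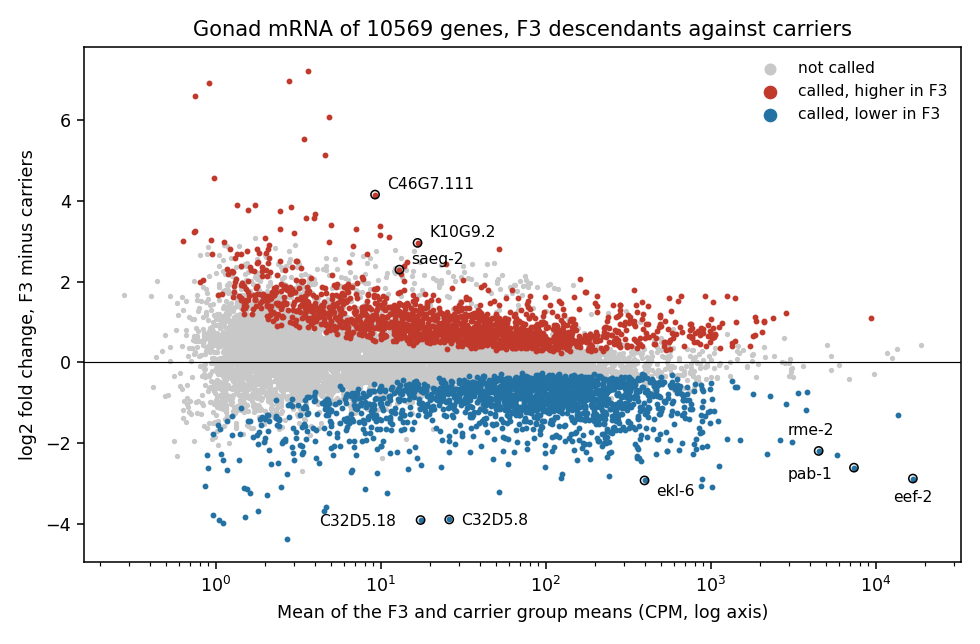
The log2 fold change of F3 over carriers against the mean level (CPM, log axis) for each of 10569 genes; red and blue points are genes called higher and lower in F3. Called genes run over the whole range of levels, and eef-2, pab-1 and rme-2 are lower in F3 at high levels.

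The genes of the transgene and of dsRNA transport were looked at first. The rde-4 mRNA stood at 29.04, 21.9 and 22.9 CPM in F3, at 30.9, 36.2 and 31.0 CPM in carriers and at 37.8, 24.1 and 32.5 CPM in rde-4. Every F3 value was below every carrier value, but the test was not passed (log2 -0.41, adjusted p = 0.0982). These counts do not tell a transgene transcript from the mutant one, so they do not check the labels. sng-1, whose promoter drives the transgene, had 0.166, 0 and 0.159 CPM in F3 and 0, 0.163 and 0 CPM in carriers, which is 2 counts over all F3 libraries and 3 counts over all carrier libraries. sid-1 was at 46.8, 54.96 and 54.4 CPM in F3 and at 75.2, 90.4 and 77.5 CPM in carriers, without overlap (log2 -0.64, SE 0.13, adjusted p = 0.0017).

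The saeg genes were higher in F3. SAEG-1 and SAEG-2 are nuclear proteins named as suppressors of activated EGL-4, a cGMP-dependent protein kinase that acts in sensory neurons and other cells. saeg-2 mRNA stood at 18.7, 9.27 and 36.9 CPM in F3, at 4.99, 4.51 and 3.66 CPM in carriers and at 52.7, 52.1 and 60.7 CPM in rde-4. The F3 values lay above all carrier values and below all rde-4 values, and replicate 3 was the highest of them. The difference from carriers was log2 2.299 (SE 0.38, adjusted p = 6.00e-04), that from rde-4 was -1.34 (adjusted p = 0.0111), and carriers against rde-4 gave -3.64 (adjusted p = 7.84e-04). The 3 comparisons share libraries. saeg-1 had 15.8, 15.6 and 94.9 CPM in F3, 6.36, 8.92 and 8.02 CPM in carriers and 26.3, 16.51 and 34.1 CPM in rde-4. All 3 F3 values exceeded all carrier values, and F3 replicate 3 alone stood above the rde-4 range (log2 2.44, SE 0.61, adjusted p = 0.00781). C29A12.6, which overlaps saeg-1 in RefSeq's WBcel235 annotation, had the same shape, with 3.65, 3.62 and 31.6 CPM in F3 and 1.12, 1.41 and 1.39 CPM in carriers (log2 3.30, adjusted p = 0.00485). Whether strand was used in counting is not given, so reads from the shared stretch cannot be assigned to either gene.

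egl-4 itself had 87.9, 128 and 95.6 CPM in F3 and 220, 227 and 215 CPM in carriers, with no overlap (log2 -1.09, SE 0.15, adjusted p = 1.74e-04). In the list of EGL-4 and cAMP genes, 3 of 14 tested members were higher (21.4%) and 5 lower (35.7%), with a median of -0.33. Over all genes tested 15.5% were higher and 16.6% lower, so the higher count was not far from the background. gsa-1, a stimulatory G protein subunit, was lower at 3.98, 2.49 and 2.38 CPM in F3 and 8.35, 6.91 and 10.1 CPM in carriers (log2 -1.50). pde-4 and pde-6, phosphodiesterases that break down cyclic nucleotides, were lower with log2 -1.13 and -1.84. kin-1, the catalytic subunit of protein kinase A, was lower with -1.02, and crh-1, the CREB transcription factor, was higher with 0.80.

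**Figure D3:**
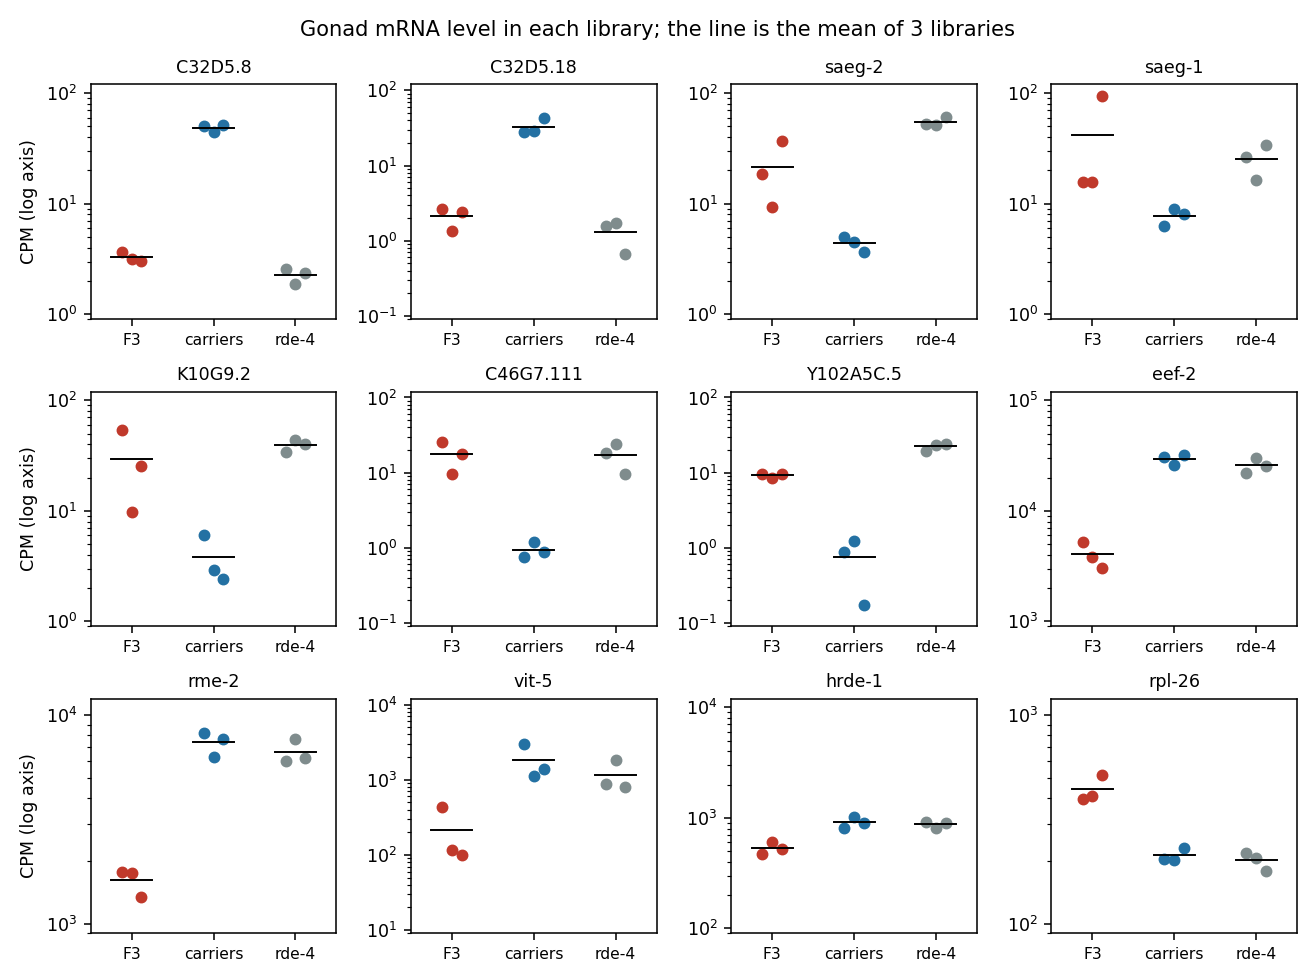
Gonad mRNA levels (CPM, log axes that differ between panels) of 12 genes in F3, carriers and rde-4; each point is 1 library and the line is the mean of 3. C32D5.8 is low in F3 and rde-4 and high in carriers, saeg-2 in F3 lies between carriers and rde-4, and eef-2, rme-2 and rpl-26 in F3 lie outside both other groups.

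Among the genes that fell most were a pair that was low in F3 and rde-4 and high in carriers. C32D5.8 stood at 3.65, 3.17 and 3.02 CPM in F3, 50.1, 44.4 and 52.1 CPM in carriers and 2.58, 1.89 and 2.36 CPM in rde-4 (log2 -3.89, SE 0.18, adjusted p = 4.88e-08). C32D5.18, annotated as a non-coding RNA, stood at 2.65, 1.36 and 2.38 CPM in F3, 27.7, 28.5 and 42.3 CPM in carriers and 1.58, 1.72 and 0.675 CPM in rde-4 (log2 -3.90, SE 0.31, adjusted p = 6.15e-06). F3 and carrier ranges were far apart for both, and against rde-4 the F3 values did not pass the test (adjusted p = 0.193 and 0.189). Both groups of sid-1;rde-4 gonads were near the carriers, with 39.8 to 53.9 CPM of C32D5.8 and 26.7 to 38.8 CPM of C32D5.18, whether or not they held pigSi3. The annotated genes overlap, so their reads cannot be told apart. C32D5.7, a nearby gene, was not raised in carriers: it had 3.65, 4.98 and 3.82 CPM in F3 and 2.24, 2.07 and 1.57 CPM in carriers (log2 1.06, adjusted p = 0.0119). BE0003N10.4, a non-coding RNA that overlaps fbxo-11.2, had 0.332, 0.226 and 0.159 CPM in F3 and 5.36, 5.76 and 4.53 CPM in carriers (log2 -4.37, SE 0.70, adjusted p = 4.96e-04), and its rde-4 values of 0.942, 0.172 and 0.169 CPM were low as well.

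For eef-2, pab-1, ekl-6 and Y41D4A.4, F3 stood below both other groups. Translation elongation factor eEF2, encoded by eef-2, had 5250, 3803 and 3060 CPM in F3, 30898, 25933 and 32038 CPM in carriers and 22203, 30140 and 25183 CPM in rde-4. The F3 libraries thus held far less of one of the most abundant gonad transcripts (log2 -2.88, SE 0.31, adjusted p = 3.15e-05). pab-1, the poly(A)-binding protein gene, chosen after its values were seen, had 2630, 1940 and 1692 CPM in F3 and 12975, 11140 and 13995 CPM in carriers (log2 -2.61). ekl-6 was at 109, 74.2 and 95.1 CPM in F3 and 605, 652 and 853 CPM in carriers (log2 -2.92), and Y41D4A.4 at 32.4, 29.9 and 27.5 CPM in F3 and 213, 227 and 213 CPM in carriers (log2 -2.86, SE 0.18, adjusted p = 1.21e-06). In both genes the replicates of each group lay close together and the groups were well separated. Y52B11A.11 had 0.664, 0.226 and 0.954 CPM in F3 and 7.23, 8.65 and 9.58 CPM in carriers (log2 -3.69), and K07B1.8 (-3.58) and catp-3 (-3.14), a cation-transporting ATPase gene, were likewise lower. The rde-4 libraries had 5.24, 7.91 and 2.36 CPM of catp-3, between 1.83, 1.81 and 1.27 CPM in F3 and 18.7, 14.0 and 10.6 CPM in carriers. icl-1, the glyoxylate cycle enzyme that couples isocitrate lyase to malate synthase, had 19.1, 5.88 and 5.56 CPM in F3 and 155, 88.3 and 40.3 CPM in carriers (log2 -3.20), and myo-1, a pharyngeal muscle myosin, fell as well (-3.24).

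The genes with the largest rises were mostly rare transcripts. 7 of the 15 with the largest fold changes belong to nspa, a family of short nematode-specific peptides: nspa-1, nspa-3, nspa-4, nspa-5, nspa-6, nspa-7 and nspa-8, with log2 fold changes of 3.12 to 5.54. nspa-6 had 6.30, 8.82 and 5.09 CPM in F3, 0, 0.109 and 0.349 CPM in carriers and 3.80, 1.38 and 5.57 CPM in rde-4, so the carriers were low and F3 overlapped rde-4. nspa-8 had 10.8, 29.4 and 20.2 CPM in F3 and 0, 1.52 and 5.93 CPM in carriers (log2 3.12, adjusted p = 0.0404). Family members are alike in sequence, and reads may be split between them. D2062.6 (named msrp-6 in RefSeq) was higher too, with 7.30, 15.8 and 12.9 CPM in F3 and 0.249, 2.34 and 2.09 CPM in carriers (log2 2.89, adjusted p = 0.0271).

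A further set was lower in carriers than in both F3 and rde-4, as saeg-2 was. The carriers did not stand alone in all of these: sid-1;rde-4 gonads with pigSi3 had 3.60, 2.61 and 5.13 CPM of saeg-2, and those without pigSi3 had 2.27, 2.13 and 1.14 CPM of K10G9.2. C46G7.111, a non-coding RNA, had 25.4, 9.72 and 17.6 CPM in F3, 0.748, 1.196 and 0.871 CPM in carriers and 18.5, 24.1 and 9.61 CPM in rde-4 (log2 4.16, SE 0.48, adjusted p = 5.14e-05). K10G9.2 had 53.8, 9.72 and 25.6 CPM in F3, 6.11, 2.94 and 2.44 CPM in carriers and 33.8, 43.9 and 40.6 CPM in rde-4 (log2 2.96, SE 0.50, adjusted p = 6.87e-04). In both genes the F3 range overlapped the rde-4 range and lay above the carriers. tag-344 had 17.9, 5.65 and 2.38 CPM in F3, 0.249, 1.41 and 1.57 CPM in carriers and 26.96, 25.5 and 8.09 CPM in rde-4 (log2 2.97, adjusted p = 0.0112). The pseudogene Y102A5C.5 had 9.62, 8.59 and 9.54 CPM in F3, 0.872, 1.25 and 0.174 CPM in carriers and 19.4, 23.6 and 24.1 CPM in rde-4, again with F3 between the other groups (log2 3.39, SE 0.57, adjusted p = 6.95e-04). Its neighbour Y102A5C.6, a pseudogene chosen after its values were seen, had 111, 105 and 123 CPM in F3 and 33.4, 48.7 and 48.4 CPM in carriers (log2 1.38). hlh-14, a proneural transcription factor gene of the achaete-scute type and also chosen after its values were seen, had 9.46, 8.82 and 7.79 CPM in F3, 1.62, 2.99 and 1.92 CPM in carriers and 6.68, 10.1 and 6.91 CPM in rde-4 (log2 1.95, SE 0.28, adjusted p = 2.40e-04).

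In 2 of the largest rises the F3 libraries differed widely among themselves. F33H12.7 had 0.332, 11.08 and 17.3 CPM in F3, 0.125, 0.109 and 0.174 CPM in carriers and 0.249, 1.03 and 0.337 CPM in rde-4 (log2 6.08, SE 1.31, adjusted p = 0.0035). F3 replicate 1 lay within the rde-4 range there, and the gonads of sid-1;rde-4 animals averaged 15.4 CPM without and 11.8 CPM with pigSi3. zip-10, a bZIP transcription factor gene, had 1.99, 4.98 and 9.22 CPM in F3, 0.872, 0.598 and 0.174 CPM in carriers and 1.27, 2.06 and 0.169 CPM in rde-4 (log2 3.20, adjusted p = 0.00776). Its F3 range touched the rde-4 range and lay above the carriers.

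The 48 called genes in which the carriers lay outside all 12 other gonad libraries included 23 that were higher and 25 that were lower in F3. sti-1, a co-chaperone that links Hsp70 to Hsp90, had 63.5, 63.5 and 51.99 CPM in F3 and 231, 227 and 232 CPM in carriers (log2 -1.95, SE 0.17, adjusted p = 1.05e-05). The rde-4 values of sti-1, 185, 227 and 163 CPM, lay below those of carriers, the highest of them narrowly. C04G6.6 had 11.3, 8.37 and 12.2 CPM in F3, 3.12, 3.05 and 2.44 CPM in carriers and 5.57, 6.02 and 6.75 CPM in rde-4 (log2 1.88, adjusted p = 6.32e-05). The non-coding RNAs ZK1025.18 (log2 -3.69) and ZK1025.19 (-3.28) and cTel29B.1 (-3.82) were near 0 in F3 and between 2.37 and 4.53 CPM in carriers. These genes were chosen after their values were seen.

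Of the small RNA silencing genes, Argonautes were the list with the largest share lower in F3. Among Argonautes, 0 of 17 tested members were higher and 13 were lower, with a median log2 fold change of -0.88, against 15.5% higher and 16.6% lower over all genes. wago-1, an Argonaute that binds secondary small RNAs in germ granules, had 667, 792 and 683 CPM in F3 and 1152, 1459 and 1372 CPM in carriers (log2 -0.90, SE 0.13, adjusted p = 2.63e-04). hrde-1 had 472, 600 and 524 CPM in F3 and 803, 1021 and 908 CPM in carriers (log2 -0.78, SE 0.14, adjusted p = 0.00108). All F3 values were below all carrier values in both genes, while the rde-4 values, 1089 to 1208 CPM for wago-1 and 818 to 909 CPM for hrde-1, overlapped the carrier range. wago-2 (log2 -1.19) and prg-2 (-1.26), pseudogenes in RefSeq, were lower as well, as were csr-1 (-0.68), the Argonaute that targets expressed germline genes, and prg-1 (-0.47), the piRNA-binding Argonaute.

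In the list of nuclear RNAi and inheritance genes, 0 of 12 were higher and 7 were lower, with a median of -0.71. emb-4, an intron-binding helicase that works with HRDE-1, had 57.1, 65.4 and 78.7 CPM in F3 and 105, 179 and 181 CPM in carriers (log2 -1.21). set-25, a histone H3 lysine 9 methyltransferase, had 76.8, 84.8 and 79.0 CPM in F3 and 119, 141 and 152 CPM in carriers (log2 -0.78). The ranges did not overlap for either. wago-4, an Argonaute needed for inheritance, was lower (-0.88), and nrde-3 (-0.88) and morc-1 (-0.63) were lower too.

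Genes that amplify small RNAs divided. Of 16 RNA-dependent RNA polymerase and mutator genes, 1 was higher and 6 were lower, with a median of -0.31. rde-10, which acts with RDE-11 in amplification, had 111, 73.3 and 86.7 CPM in F3 and 314, 345 and 419 CPM in carriers (log2 -1.99, SE 0.19, adjusted p = 1.54e-05). Its partner rde-11 did not pass the test, with 29.2, 31.2 and 32.1 CPM in F3 and 36.1, 40.3 and 33.6 CPM in carriers (log2 -0.25, adjusted p = 0.299). The 2 partners thus gave unlike values. mut-15, a mutator focus gene, had 293, 199 and 185 CPM in F3 and 858, 598 and 850 CPM in carriers (log2 -1.77), and haf-6, an ABC transporter gene needed for RNAi, had 69.0, 48.6 and 44.2 CPM in F3 and 228, 165 and 228 CPM in carriers (log2 -1.94). mut-2, a nucleotidyltransferase gene, was the member that was higher (0.52). It missed the threshold without F3 replicate 3 or without carrier replicate 3.

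Of 19 Dicer and ERI complex genes, 0 were higher and 4 were lower (21.1%, against 16.6% of all genes), with a median of -0.24, or -0.02 with library totals. rrf-3, the polymerase that makes 26G small RNAs, had 57.6, 64.9 and 74.7 CPM in F3 and 115.9, 181 and 139 CPM in carriers (log2 -1.15), and ergo-1, an Argonaute of those RNAs, had 190, 247 and 227 CPM in F3 and 304, 426 and 420 CPM in carriers (log2 -0.79). xrn-2, an exoribonuclease, was the lowest of the list (-1.49). Among 6 genes of double-stranded RNA transport, 1 was higher and 3 were lower: sid-1, sid-3, a tyrosine kinase gene (-0.74), and rsd-6 (-0.62) were lower, and sid-5, of endosomes, was higher (0.96). These counts are unstable: without F3 replicate 1 or without carrier replicate 2, 0 were higher and 1 was lower, and sid-5 missed the threshold without F3 replicate 3 or without carrier replicate 1 as well. Candidate targets of the ERGO-1 pathway had 6 of 19 higher and 0 lower, with a median of 0.56. Without carrier replicate 2 the count was 2 higher. C44B11.6 was at 37.2, 42.97 and 33.4 CPM in F3 and 19.4, 13.5 and 18.8 CPM in carriers (log2 1.14), and the pseudogene W04B5.1 at 11.4, 12.2 and 7.47 CPM in F3 and 5.86, 3.86 and 4.18 CPM in carriers (1.16). The groups did not overlap in these 2 targets.

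Chromatin silencing genes had 0 of 32 higher and 13 lower, with a median of -0.44. Without F3 replicate 1, 2 were higher and 11 lower. mes-6, a subunit of the Polycomb complex that methylates histone H3 lysine 27, had 173, 108.3 and 77.1 CPM in F3 and 712, 530 and 598 CPM in carriers (log2 -2.36, SE 0.28, adjusted p = 6.27e-05). set-26 (-2.01) and its close relative set-9 (-1.65) were lower, and reads may be split between these 2 alike genes.

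Germ granule and germ cell regulators were also lower in the main. P granule genes had 1 of 15 higher and 9 lower, with a median of -0.59. The Vasa-like helicase genes glh-1 and glh-2 led: glh-1 had 646, 699 and 557 CPM in F3 and 2478, 2026 and 2672 CPM in carriers (log2 -1.92, SE 0.21, adjusted p = 4.01e-05), and glh-2 had 290, 290 and 235 CPM in F3 and 1401, 1124 and 1380 CPM in carriers (log2 -2.26, SE 0.24, adjusted p = 2.69e-05). Neither gene's groups overlapped, and the rde-4 values lay at 1870 to 2118 CPM for glh-1. pgl-1 (-0.95) and pgl-3 (-0.83), scaffold genes of P granules, were lower, and pid-1, of the piRNA pathway, was higher (0.54).

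Of 34 germ cell RNA regulators, 3 were higher and 18 were lower, with a median of -0.43. fbf-1 and fbf-2, nearly identical PUF proteins that keep germline stem cells, were at log2 -2.08 and -1.98: fbf-1 had 169, 132 and 106 CPM in F3 and 575, 486 and 667 CPM in carriers, with no overlap. lip-1, a MAP kinase phosphatase gene, was lower (-1.51), as were gld-2, a cytoplasmic poly(A) polymerase gene (-1.75), tra-2, a sex determination receptor gene (-1.07), and lin-41, a regulator of oocyte maturation (-1.62). fog-3, which directs germ cells to the sperm fate, was higher (2.14), as were pos-1 (0.42) and pie-1 (0.45), regulators of early embryos. Without F3 replicate 3, 0 of these regulators were higher and 14 lower.

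Meiotic chromosome genes had 3 of 39 higher and 10 lower, with a median of -0.19, and replication and cell cycle genes had 4 of 39 higher and 16 lower, with a median of -0.21. With library totals in place of TMM these medians were 0.04 and 0.01 and the counts 6 higher with 7 lower and 10 higher with 7 lower. Of the replication genes, 9 were lower without F3 replicate 1 or without carrier replicate 2 and 10 without carrier replicate 3, and without F3 replicate 3 0 were higher. Without carrier replicate 3, 6 meiotic genes were lower. cra-1, needed to assemble the synaptonemal complex, had 170, 169 and 175 CPM in F3 and 378, 500 and 567 CPM in carriers (log2 -1.49). div-1, a DNA polymerase alpha subunit, had 121, 99.3 and 113 CPM in F3 and 290, 249 and 314 CPM in carriers (log2 -1.35). mcm-2, a subunit of the replicative helicase, was lower (-1.02), and air-1, the Aurora A kinase gene, was higher (0.37).

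Oocyte genes split between a few strong falls and values near the background. Of 18 eggshell and oocyte surface genes, 2 were higher and 7 were lower, with a median of -0.36. The lower count was 4 without F3 replicate 1, carrier replicate 2 or carrier replicate 3. chs-1, the chitin synthase of the eggshell, had 311, 330 and 324 CPM in F3 and 1478, 1987 and 2272 CPM in carriers (log2 -2.57, SE 0.23, adjusted p = 1.05e-05). rme-2, the yolk receptor of oocytes, had 1774, 1747 and 1351 CPM in F3 and 8220, 6303 and 7721 CPM in carriers (log2 -2.19, SE 0.27, adjusted p = 6.95e-05). Both genes were several-fold lower in every F3 library than in any carrier library. cbd-1, an eggshell chitin-binding protein gene, was lower (-1.18), whereas perm-2 (0.76) and cav-1, a caveolin gene (1.05), were higher.

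Ribosomal protein genes were the group with the largest share of members higher in F3. Of 80 genes of the cytosolic ribosome, 70 were higher and 0 lower, with a median log2 fold change of 0.85. Their summed level was 89492 to 97569 CPM in F3 and 59733 to 72202 CPM in carriers. rpl-26 had 395, 412 and 516 CPM in F3, 205, 202 and 232 CPM in carriers and 219, 207 and 179 CPM in rde-4 (log2 1.05, SE 0.16, adjusted p = 3.85e-04). rps-18 had 1159, 1203 and 1417 CPM in F3 and 602, 658 and 715 CPM in carriers (log2 0.94), and rpl-21 was higher by 0.85. The F3 ranges of these genes lay above those of both other groups. Of 64 mitochondrial ribosomal protein genes, 33 were higher and 3 lower, with a median of 0.49. mrps-18A had 118, 104.3 and 117.3 CPM in F3 and 64.3, 59.0 and 60.5 CPM in carriers (log2 0.89), and mrpl-36 had 13.9, 12.2 and 14.9 CPM in F3 and 4.113, 5.11 and 5.58 CPM in carriers (log2 1.47). These transcripts encode ribosome subunits, while eef-2 and pab-1, whose proteins act on the ribosome and on the mRNA tail, were lower, as given above.

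Histone genes had 9 of 60 higher (15%, against 15.5% of all genes) and 0 lower, with a median of 0.35, and against rde-4, in a comparison that shares the F3 libraries, 28 were higher and 0 lower. his-72 and his-74, which encode H3.3-type histones outside the replication-linked clusters, were higher: his-72 had 157, 151 and 179 CPM in F3 and 71.9, 74.1 and 73.9 CPM in carriers (log2 1.15, SE 0.13, adjusted p = 4.69e-05), and his-74 had 166, 176 and 185 CPM in F3 and 94.2, 91.4 and 92.9 CPM in carriers (log2 0.92). Copies of the replication-linked histones are near identical, and reads may be split among them. his-60, a replication-linked histone gene chosen after its values were seen, had 67.9, 68.3 and 93.6 CPM in F3, 85.1, 52.8 and 76.2 CPM in carriers and 12.2, 10.8 and 7.76 CPM in rde-4. The F3 and carrier ranges overlapped (log2 0.11, adjusted p = 0.737) and both lay above rde-4, with log2 2.88 for F3 (adjusted p = 2.40e-05) and 2.77 for carriers (adjusted p = 3.87e-05). his-63 and his-64 were likewise above rde-4 in F3 (2.44 and 2.40) and in carriers (2.94 and 2.29).

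**Figure D4:**
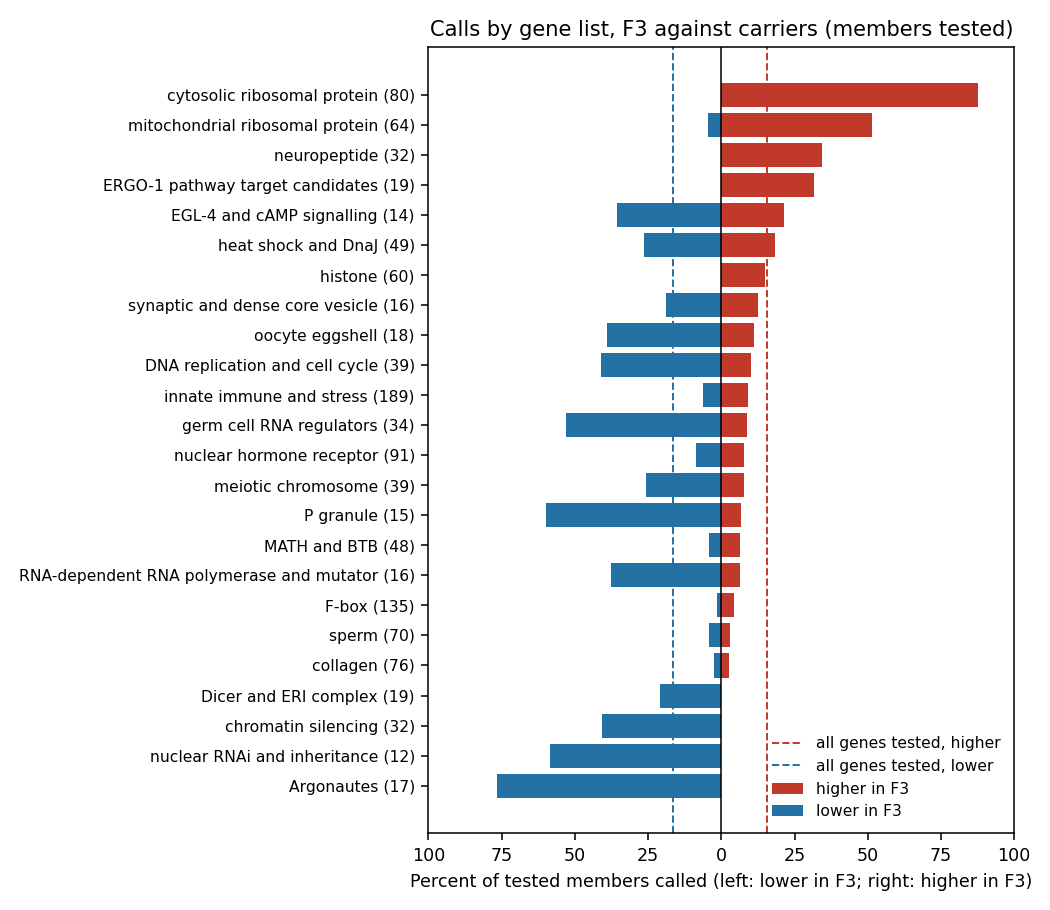
Percent of tested members of each gene list called lower in F3 (left, blue) and higher in F3 (right, red), with the number tested in brackets; dashed lines mark 16.6% and 15.5%, the shares over all genes tested. Cytosolic ribosomal proteins reach 87.5% higher and Argonautes 76.5% lower.

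Transcripts known from tissues beside the germline were lower in part. All 6 vitellogenins, yolk proteins made in the intestine, were lower, with a median log2 fold change of -2.85. Their summed level was 580 to 2184 CPM in F3 and 4393 to 10944 CPM in carriers, and replicate 1 was the high one in both groups. vit-5 had 429, 116.2 and 98.9 CPM in F3, 2945, 1112 and 1405 CPM in carriers and 871, 1843 and 798 CPM in rde-4 (log2 -3.08, SE 0.70, adjusted p = 0.00503). vit-1, vit-3 and vit-4 (-2.81 to -3.06) behaved alike, and the copies are similar enough that reads may be split. Of 7 intestine markers tested, 0 were higher and 2 lower, which are the vitellogenins vit-2 (-2.18) and vit-6 (-1.72), and the list median was 0.11. The marker sum was 282 to 944 CPM in F3 and 1309 to 2480 CPM in carriers. Most of it was vit-2 (means of 197 CPM in F3 and 894 CPM in carriers) and vit-6 (251 and 827 CPM). The other tested markers missed the threshold, among them asp-1 (29.2 and 24.7 CPM) and act-5 (17.4 and 26.1 CPM). 4 in place of 6 vitellogenins passed the test without F3 replicate 2, without F3 replicate 3 or without carrier replicate 1. In the same settings 0 intestine markers were lower.

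Of 6 muscle markers, 0 were higher and 2 were lower, with a median of 0.14. unc-54, the body wall myosin heavy chain, had 35.3, 25.6 and 24.5 CPM in F3 and 170, 196 and 146 CPM in carriers (log2 -2.58, SE 0.43, adjusted p = 7.33e-04), and unc-15, paramyosin, had 68.7, 42.97 and 31.0 CPM in F3 and 186, 186 and 143 CPM in carriers (log2 -1.85). The other 4 markers missed the threshold, at log2 0.05 to 0.59. The whole marker list summed to 96.5 to 157 CPM in F3 and 327 to 419 CPM in carriers. Of 4 neuron markers tested, 0 were higher and 2 lower, with a median of -0.80. The lower ones were ida-1 (-3.10), of dense core vesicles, and egl-21 (-1.45), a carboxypeptidase that processes neuropeptides. rab-3 (0.18) and unc-31 (-0.15) missed the threshold. The list leaned on single libraries: its median was 0.16 without F3 replicate 2 and 0.20 without carrier replicate 3. Only 1 was lower without F3 replicate 2, without F3 replicate 3 or without carrier replicate 1. The neuron list summed to 7.95 to 15.4 CPM in F3 and 16.9 to 31.8 CPM in carriers. The part of these cell types in the other changes was not tested.

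Germline markers, of the labelled tissue, summed to 4255 to 5237 CPM in F3 and 9689 to 11001 CPM in carriers, far above neuron or muscle markers. Transcripts of other tissues were present too. Intestine markers summed to 282 to 944 CPM in F3 and 1309 to 2480 CPM in carriers, mostly vit-2 and vit-6. Hypodermis markers summed to 198 to 364 CPM in F3 and 175 to 256 CPM in carriers, mostly col-19. The cuticle genes, a longer list of 182, summed to 8183 to 18597 CPM in F3 and 8757 to 18611 CPM in carriers. Germline markers were themselves lower, with 1 of 10 higher and 8 lower and a median of -0.87. So were oocyte markers, with 1 of 9 higher and 5 lower and a median of -0.48. Sheath and spermatheca markers had 1 of 6 higher and 1 lower, with a median of 0.04. Each share was 16.7%, near the 15.5% and 16.6% of all genes. sth-1, of the spermatheca, had 10.95, 12.0 and 10.5 CPM in F3 and 2.62, 4.73 and 5.75 CPM in carriers (log2 1.35), and lim-7, of the sheath, was lower (-1.03). Embryo markers had 1 of 4 higher, end-1 (2.03), hypodermis markers 0 of 3 and the coelomocyte marker 0 of 1 in either direction. Both distal tip cell markers were too rare to test, and 12 mitochondrially encoded genes were at 0 counts in all libraries.

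Sperm transcripts were variable. The summed level of sperm genes was 2671, 5351 and 2899 CPM in F3, 356, 1052 and 2058 CPM in carriers and 910 to 2580 CPM in rde-4. The F3 sums lay above the carrier sums, and the median log2 fold change over 70 tested members was 2.03, but 2 members passed as higher and 3 as lower. Without carrier replicate 3 these were 5 and 2, and without carrier replicate 2 they were 1 and 1. Of 8 sperm markers 0 were higher and 1 lower, with a median of 1.91. msp-38, a major sperm protein gene, had 67.7, 126 and 51.7 CPM in F3 and 1.74, 12.67 and 30.8 CPM in carriers (log2 2.46, adjusted p = 0.108). The carrier libraries differed from each other more than 10-fold in that gene. ssp-37, which encodes a small sperm protein, was higher (0.98), while spe-5, a vacuolar ATPase subunit gene (-1.19), and spe-41, a sperm calcium channel gene (-1.25), were lower.

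Signalling peptide genes were higher in part, at low levels. Of 32 neuropeptide and insulin-like genes, 11 were higher and 0 lower, with a median of 0.91. Without carrier replicate 3, 7 were higher. ins-23 had 13.9, 12.0 and 16.9 CPM in F3 and 1.99, 1.96 and 2.79 CPM in carriers (log2 2.68, SE 0.44, adjusted p = 5.62e-04), and nlp-17 had 8.46, 17.2 and 11.9 CPM in F3 and 2.74, 1.79 and 4.36 CPM in carriers (log2 2.12). ins-5 (1.31) and ins-22 (2.81) were higher too, and no F3 value of ins-23 or nlp-17 overlapped the carriers. Of 16 synaptic and dense core vesicle genes, 2 were higher and 3 lower, with a median of 0.01. These shares, 12.5% and 18.8%, were near the 15.5% and 16.6% of all genes. Among them snb-1, a synaptobrevin gene, was higher (0.63) and unc-26, a synaptojanin gene, was lower (-1.03).

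Stress genes did not move in 1 direction. Of 49 heat shock and DnaJ genes, 9 were higher (18.4%) and 13 lower (26.5%), with a median of 0.08. Over all genes the shares were 15.5% and 16.6%, so the higher share was near the background. The higher count was 4 without F3 replicate 3 and 5 without carrier replicate 3. hsp-4, the BiP chaperone of the endoplasmic reticulum, had 212, 214 and 188 CPM in F3 and 350, 469 and 454 CPM in carriers (log2 -1.05), and the heat shock factor gene hsf-1 (-0.89) and the mitochondrial chaperone gene hsp-6 (-0.96) were lower, whereas the small heat shock gene hsp-16.1 (1.82), which has a near-identical copy, was higher. Innate immune and stress enzyme genes had 17 of 189 higher and 12 lower, with sod-1, a superoxide dismutase (0.81), spp-10, a saposin-like protein (1.05), and gst-20, a glutathione transferase (0.93), among the higher. The order of these counts rests on single libraries: they were 9 and 20 without F3 replicate 1, 14 and 6 without F3 replicate 3, 10 and 10 without carrier replicate 2 and 11 and 15 without carrier replicate 3. Both shares of the immune and stress enzyme genes were under the background shares. The same held for F-box genes (6 of 135 higher, 2 lower), MATH and BTB genes (3 of 48 higher, 2 lower), nuclear hormone receptors (7 of 91 higher, 8 lower) and cuticle genes (2 of 76 higher, 2 lower), counts small enough that single libraries moved them by over 1.5 times. Among them nhr-23, a receptor known from moulting, was lower (-1.73), fbxb-56 was higher (2.29), bath-40 was lower (-0.72), and bli-4, which encodes a proprotein convertase and not a collagen, was lower (-0.68). Of 4 glyceraldehyde-3-phosphate dehydrogenase genes, 0 passed in either direction, with a median of 0.09.

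Small RNA libraries of gonads from the same strains, 2 of F3 and 2 of carriers, gave a second readout of the same contrast. F3 libraries held 1841973 and 21273074 counts in genes, the first the shallowest of all 11 gonad small RNA libraries, and carriers 15155317 and 24438992. Small RNAs of 287 of 11517 genes differed (2.49%), 225 higher (1.95%) and 62 lower (0.538%). This count leaned on single libraries and on the fit. It was 4010 without F3 replicate 1, 100 without F3 replicate 2, 28 without carrier replicate 1 and 23 without carrier replicate 2, and 20 genes (17 higher and 3 lower) were called here and under every other setting tried.

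pde-4 led those 20. Its small RNAs stood at 48.2 and 53.9 CPM in F3, 2.18 and 1.53 CPM in carriers and 73.2, 61.5 and 72.7 CPM in rde-4 (log2 4.81, SE 0.22, adjusted p = 3.10e-06), while its mRNA, at 6.47, 5.65 and 4.61 CPM in F3 and 12.8, 14.0 and 9.58 CPM in carriers, was lower. Small RNAs of Y71F9B.13 stood at 299 and 581 CPM in F3, 16.5 and 13.6 CPM in carriers and 203 to 302 CPM in rde-4 (log2 4.89), and its mRNA missed the threshold (log2 0.46, adjusted p = 0.384). Those of ndx-1, a Nudix hydrolase gene, stood at 183 and 264 CPM in F3, 25.7 and 27.2 CPM in carriers and 227 to 236 CPM in rde-4 (log2 3.09). In these 3 genes the F3 level was near that of rde-4 and the carriers were low. The sid-1;rde-4 gonads were low too, with and without pigSi3, for example at 0.91 to 1.36 CPM for pde-4. cutl-14, of a family of cuticle-like proteins, differed in this: its small RNAs stood at 60.8 and 111 CPM in F3, 7.28 and 6.40 CPM in carriers and 7.91 to 16.8 CPM in rde-4 (log2 3.68).

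Lower small RNAs that held were those of tbc-6, nhr-64 and hsf-2. For tbc-6, which encodes a TBC domain protein of the Rab GTPase regulator family, they stood at 3.29 and 15.7 CPM in F3, 178 and 238 CPM in carriers and 9.78 to 11.05 CPM in rde-4 (log2 -4.12, SE 0.40, adjusted p = 0.00128). For nhr-64, a nuclear hormone receptor gene, they stood at 15.3 and 32.4 CPM in F3 and 205 and 273 CPM in carriers (log2 -3.19), and for the pseudogene hsf-2 at 0.548 and 1.57 CPM in F3 and 13.4 and 24.5 CPM in carriers (log2 -3.78). All 3 were high in carriers and low in F3 and rde-4, and sid-1;rde-4 gonads were low in tbc-6 and hsf-2 but held 90.5 to 174 CPM of nhr-64. The mRNA of tbc-6 had 9.96, 7.46 and 4.77 CPM in F3 and 9.72, 6.91 and 7.67 CPM in carriers, overlapping ranges (log2 -0.13, adjusted p = 0.765).

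Among genes without overlap that averaged 5 CPM or more in the higher group, those with the largest small RNA rises, F44F4.10 (log2 6.09) and W03A5.1 (5.89), rested on F3 replicate 2: F44F4.10 had 0.548 and 28.999 CPM in F3 and 0.132 and 0.314 CPM in carriers. C10C6.9, a pseudogene and the largest fall by the same limits, had 0.548 and 0.0542 CPM in F3, 4.04 and 6.5998 CPM in carriers and 4.36 to 5.202 CPM in rde-4 (log2 -5.57, adjusted p = 0.0121); each F3 value is 1 count. Its mRNA was higher, at 2.82, 2.04 and 4.13 CPM in F3 and 0.997, 1.25 and 1.05 CPM in carriers (log2 1.43, adjusted p = 0.0157). cor-1 (4.46), a coronin gene, and R05G6.5 (-3.97) were the other genes named by these limits.

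Across genes, small RNA and mRNA changes were related loosely. Of the 225 genes with more small RNAs in F3, those tested in mRNA had 20 higher (19.2%) and 10 lower (9.62%) and a median of 0.34, against 15.5% and 16.6% of all genes. Of the 62 with fewer, 55 were tested in mRNA, with 9 higher (16.4%) and 6 lower (10.9%). Over the 7931 genes tested in both, Pearson's r between the log2 fold changes was 0.161, given as a description, since the genes share libraries and depth. saeg-2 had 1681 and 934 CPM of small RNAs in F3, 2613 and 2518 CPM in carriers and 460, 554 and 456 CPM in rde-4. The F3 values lay between the other groups, the reverse order of its mRNA, but the difference from carriers missed the threshold (log2 -0.98, adjusted p = 0.0592). That difference passed without a filter on low counts (-1.02, adjusted p = 0.00637) and with DESeq2's Wald test (-0.996, adjusted p = 0.00359). Without the shallow F3 replicate 1 it was -1.46.

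**Figure D5:**
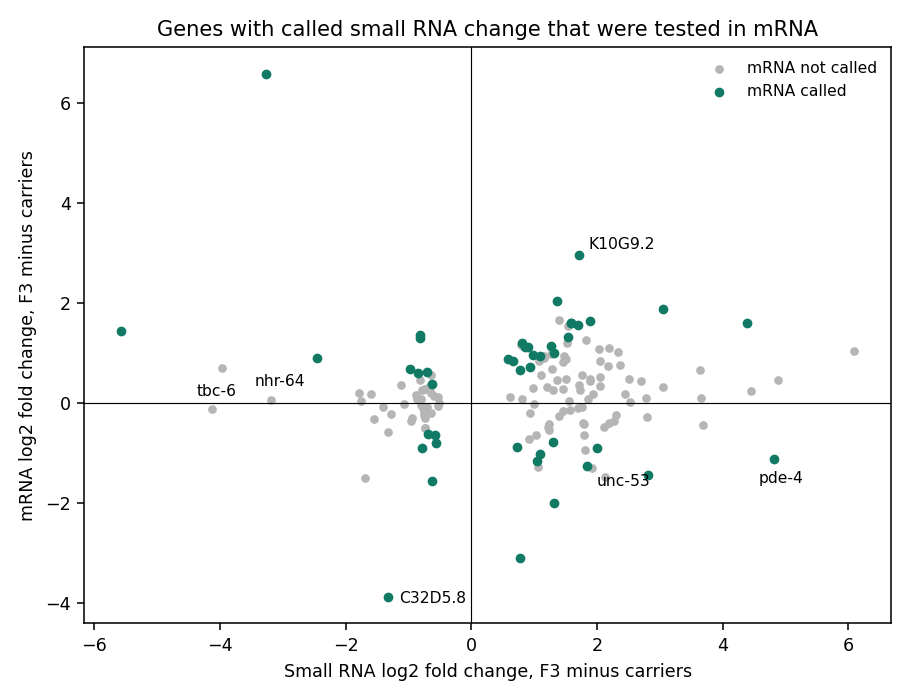
The mRNA log2 fold change of F3 over carriers against that of small RNA. Shown are the 159 genes called in small RNA and tested in mRNA. Green points are the 45 also called in mRNA, a share under the 32.1% of all genes tested. K10G9.2 is higher in both, C32D5.8 lower in both, and pde-4 higher in small RNA and lower in mRNA.

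The 45 genes called in both readouts were a smaller share of the 159 than the 32.1% of all genes called in mRNA. Among them some moved together and some apart. K10G9.2 had 724 and 1101 CPM of small RNAs in F3 and 232 and 325 CPM in carriers (log2 1.71, adjusted p = 0.0218), and its mRNA was higher too, as given above. C32D5.8 had 6.58 and 6.88 CPM of small RNAs in F3 and 17.5 and 16.54 CPM in carriers (log2 -1.33, adjusted p = 0.0479), with its mRNA lower. his-41, an H2B gene, btb-4, F33H2.3 and ZC513.7 were higher in both (small RNA log2 0.99, 1.10, 0.58 and 0.90), and elpc-3, an Elongator subunit gene, and T27F6.6 were lower in both (-0.58 and -0.56). In contrast unc-53, a cytoskeletal guidance gene, had more small RNAs (1.84) and less mRNA (-1.26), and C18E9.4, named ndub-3 in RefSeq, and eif-1, a translation initiation factor gene, had fewer small RNAs (-0.81 and -0.71) and more mRNA (1.35 and 0.62). The small RNA calls of all 11 genes just given were lost under at least 1 other setting, whereas that of pde-4 held under every one tried.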

How the data were processed

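The authors deposited a table of gene read counts for each library, of which 15 mRNA and 11 small RNA libraries of gonads were analysed. Tables of 65 libraries of other tissues were not used. Per the labels' protocols, RNA was taken in TRIZOL, mRNA libraries were made with Nextera XT, and small RNA libraries with NEBNext or TruSeq kits. Per the submitters' processing notes, cutadapt, FastQC, HTSeq and DESeq2 were used on ce10, without versions. For aligner, annotation and use of strand: not given in the sources used here. HTSeq's lines for reads outside genes were left out of totals and tests, and small RNA counts carry neither length, class nor strand.

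Counts were scaled by TMM, filtered with filterByExpr and fitted in edgeR 4.0.16 (R 4.3.3), 1 model over the 15 mRNA libraries (10569 genes kept of 30199) and 1 over the 11 small RNA libraries (11517 of 21965), the robust quasi-likelihood F test on F3 minus carriers, and Benjamini-Hochberg adjustment over all genes tested with a threshold of 0.05. DESeq2 1.42.0 was an alternative. Effects are given on the log2 scale, with SE for the standard error. Low counts make the fitted fold changes of rare genes depend on edgeR's prior count.

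Named in each direction were the 15 genes of largest fold change that passed 0.05, had no overlap between 3 and 3 libraries and averaged 5 CPM or more where they were higher. Added were a fixed set (bath-45, C38D9.2, F15D4.5, egl-4, hrde-1, both saeg genes, sid-1, rde-4, sng-1, rde-11), up to 3 members per list by p, up to 12 genes called in both readouts, and up to 5 per direction in small RNA. Further members of a list given with a fold change, and genes so marked, were chosen after their values were seen. bath-45 and C38D9.2 were too rare in mRNA to be tested, and F15D4.5 did not differ detectably (log2 -0.05, adjusted p = 0.95). The comparison, its genes and the lists were chosen with earlier results of these data known. Gene types, names and overlaps come from RefSeq's WBcel235 table, which together with a table of gene names matched 29754 of 30199 genes of the mRNA tables. No coordinates or lengths were taken from it, since the build differs. No library was a copy of another (highest pairwise r 0.994).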

Additional observations from a re-analysis of the deposited data

How the results depend on the processing

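The mRNA comparison called 2854 to 3635 genes in place of 3388 under other scalings, filters, DESeq2 and the 6 libraries alone, and 2533 to 3309 with any 1 library left out. 1957 genes were called in each of these settings, and no called gene turned round. Library totals moved the share of calls that were higher to 68.2%, against 48.2% with TMM, and the median of all genes to 0.30, against 0.08. With the replicate number as a block, 3139 genes were called. The labels state no pairing, and deviations of same-numbered F3 and carrier libraries correlated at 0.432, 0.0433 and 0.105. For replicate 1 the same-numbered carrier library was the best match, for replicates 2 and 3 it was not. Whether the replicates 1 shared a culture or dissection was not tested. The small RNA count of 287 became 476 without a filter on low counts, 714 with DESeq2, 35 with both groups and rde-4 alone, 93 with a replicate block and 23 to 4010 with 1 library left out, which left a lone sample assumed to vary like the other groups. A crossed pairing of the small RNA replicate numbers, chosen after seeing the data, called 147. The cause of these differences was not tested.

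Directions turned round only in genes that missed the threshold. With library totals F15D4.5 was at 0.16 and tbc-6 mRNA at 0.084. With 1 library left out F15D4.5 ran between -0.27 and 0.31, tbc-6 mRNA between -0.36 and 0.11, his-60 between -0.069 and 0.33, and his-64 between -0.10 and 0.39. Of 143 genes named and called in mRNA, 26 lost the call under at least 1 other setting: nspa-1, nspa-3, nspa-8, tag-344, D2062.6, saeg-1, crh-1, C10C6.9, C32D5.7, egl-21, lim-7, end-1, fog-3, pie-1, pos-1, prg-1, mut-2, rsd-6, sid-3, sid-5, air-1, perm-2, hsp-16.1, spe-41, vit-2 and vit-6. Of 23 named and called in small RNA, 16 did. F3 mRNA libraries are shallow, so rare transcripts are measured least well.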
